A study of Rattus norvegicus with 10 samples.

Results

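Leukocyte adhesion molecules and integrins were followed as 9 genes of the 32623 in the deposited table, taken by their gene names: the selectins Selp and Sele, the selectin ligand Selplg, the integrin ligands Vcam1, Icam1 and Icam2, and the integrin subunits Itgal, Itgb2 and Itga4. Each name stood beside 1 identifier. RNA had been sequenced from the supraoptic nucleus, a hypothalamic nucleus of vasopressin and oxytocin neurons, of male Sprague Dawley rats of 250 to 300 g whose age was not given in the labels. One nucleus of a rat had received an adeno-associated virus carrying a hairpin RNA to knock down Opn3 (shOpn3, 5 samples) and the opposite nucleus a virus with a non-targeting hairpin (shControl, 5 samples), and 1 mm punches were taken 2 weeks later. Both groups thus carried a virus and a hairpin, and no nucleus without virus was among the samples. The labels do not name the promoter that drove the hairpin, which cells took up the virus, or whether equal replicate numbers mark the same rat. Opn3, which encodes the light-sensitive receptor opsin 3, had 261 to 1007 normalized counts in shControl and 145 to 290 in shOpn3 (log2 fold change -1.82, limma adjusted p = 0.00226). Its groups overlapped because shControl replicate 5 was low. Avp and Oxt, which mark the neurons of this nucleus, were present in all 10 samples and much lower in shOpn3. Their shOpn3 means were 21.4% and 20.6% of the shControl means (log2 fold change -2.35 and -2.21), with groups that did not overlap. Libraries held 33158341 to 39958578 reads.

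Leukocytes leave the blood in a series of adhesive steps. Selectins on activated endothelium (P-selectin from Selp, E-selectin from Sele) slow passing cells by binding sugars on ligands such as PSGL-1, the product of Selplg. Chemokines then switch on integrins, and the cells arrest. LFA-1, the pair of Itgal and Itgb2, binds ICAM-1 and ICAM-2, while VLA-4, the pair of Itga4 and Itgb1, binds VCAM-1. In the brain the endothelium forms a barrier and few leukocytes cross it in health. The resident microglia also carry Itgb2, mostly as the partner of Itgam.

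Values below are normalized counts, which are reads divided by a size factor of the sample. Levels of different genes are not compared, since the counts were not divided by transcript length. Of the 9 genes, 5 passed a limma adjusted p of 0.05 between the groups, against 18.8% of the 15597 genes tested. Itgal, Itgb2, Icam1 and Vcam1 were higher in shOpn3 (10.4% of all genes tested were called higher) and Icam2 was lower (8.48% were called lower). Selp, Sele, Selplg and Itga4 did not pass. The groups did not overlap for 4 genes, against 15.3% of all genes tested. In 7 genes all 5 same-numbered pairs differed in one direction, against 39.4% of all genes tested. The median log2 fold change of the 9 genes was 0.55, a value set by Selp, and 0.52 over the 8 genes without it, beside -0.02 over all genes tested. By role, 2 of the 3 integrin ligands were higher and 1 lower, 2 of the 3 integrin subunits were higher, and of the selectins and Selplg none was called by limma.

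**Figure D1:**
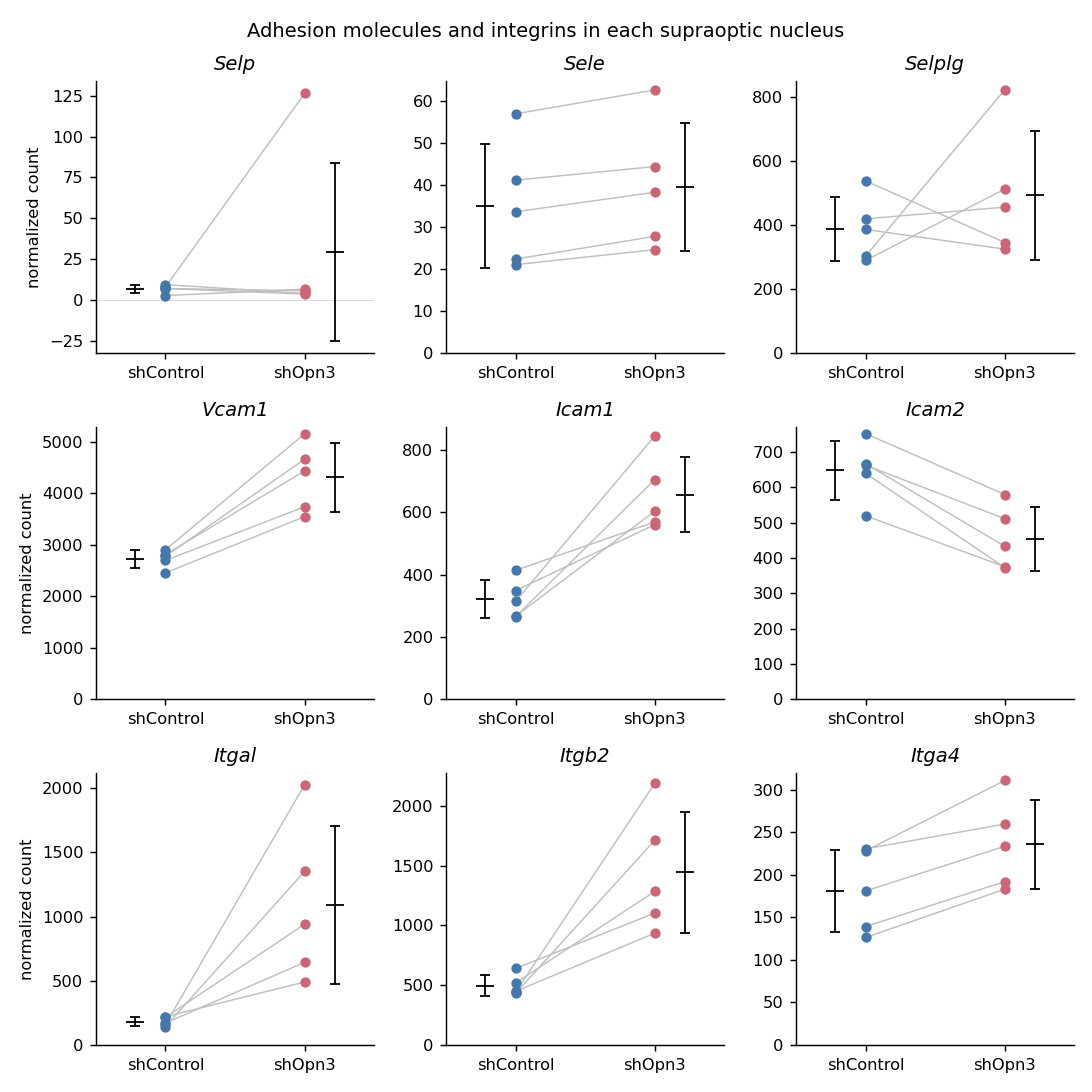
Normalized count of each gene (vertical axis, from 0 except for Selp) in the 5 shControl and 5 shOpn3 samples. Grey lines join samples with the same replicate number, and black bars give the mean ± SD. The groups are separate for Vcam1, Icam1, Itgal and Itgb2, and Selp is high in 1 shOpn3 sample alone.

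The integrin ligands were read first. Vcam1 (ENSRNOG00000014333) encodes the ligand of VLA-4, which cytokines induce on endothelium. Its normalized counts were 2451, 2806, 2774, 2899.7 and 2693 in shControl replicates 1 to 5 and 3542, 4431, 4657, 5150.3 and 3733 in shOpn3 replicates 1 to 5. Every shOpn3 sample lay above every shControl sample. The mean rose from 2725 ± 170.1 to 4303 ± 664 (SD, n = 5 each). The log2 fold change from limma was 0.65, with SE 0.102 and an adjusted p of 0.00124.

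Icam1 (ENSRNOG00000020679), the inducible ligand of LFA-1, had 349, 265, 266, 314 and 414 normalized counts in shControl replicates 1 to 5 and 560.3, 705, 604, 845 and 569 in shOpn3 replicates 1 to 5. The groups were again apart, and shOpn3 replicate 4 was the highest for both ligands. The mean rose from 321 ± 62.4 to 657 ± 120.1 (SD, n = 5 each). In limma the log2 fold change was 1.03, with SE 0.152 and an adjusted p of 0.000862. In single pairs the log2 difference ran from 0.46 in replicate 5 to 1.43 in replicate 4 for Icam1, and from 0.47 in replicate 5 to 0.83 in replicate 4 for Vcam1.

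Icam2 (ENSRNOG00000025143), a ligand of LFA-1 that resting endothelium already carries, went the other way. It had 639, 662, 666, 752 and 519 normalized counts in shControl replicates 1 to 5 and 372, 511, 433, 579.6 and 375 in shOpn3 replicates 1 to 5. All 5 pairs were lower in shOpn3, but the groups were not separate: shOpn3 replicate 4 exceeded shControl replicate 5. The mean fell from 648 ± 83.7 to 454 ± 90.0 (SD, n = 5 each), or 70.1% of control. The log2 fold change from limma was -0.52, with SE 0.141 and an adjusted p of 0.0215. The call did not hold without any one of 4 libraries: the adjusted p was 0.0501 without shControl replicate 2, 0.0572 without shControl replicate 4, 0.0542 without shOpn3 replicate 3 and 0.0575 without shOpn3 replicate 5.

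Icam1 and Icam2, both ligands of LFA-1, were also compared as a ratio within each nucleus. The log2 ratio of Icam1 to Icam2 was -0.87, -1.32, -1.32, -1.26 and -0.33 in shControl replicates 1 to 5 and 0.59, 0.46, 0.48, 0.54 and 0.60 in shOpn3 replicates 1 to 5. It was higher in shOpn3 in 5 of 5 pairs, by 1.56 in the mean (exact two-sided permutation test over samples, p = 0.00794, adjusted p = 0.0119 over the 6 ratios tested). The shOpn3 samples lay close together, with an SD of 0.0619 against 0.430 in shControl. Vcam1 rose less than Icam1 by 0.38 on the log2 scale, a difference that did not pass (exact permutation p = 0.0635, adjusted p = 0.0762). Without shControl replicate 1 its adjusted p was 0.0476 and without shControl replicate 5 it was 0.0286.

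Endothelial markers were read beside these ligands. Of 10 marker genes tested, 0 were called by limma with the group alone, and 0 had an unadjusted p under 0.05 in that fit. By edgeR and DESeq2 0 were called, and by limma-voom with sample weights 1. The blocked limma fit called 1, Slco1a4, a transporter of the barrier, which was higher in 5 of 5 pairs (log2 fold change 0.17, adjusted p = 0.0442). Egfl7 and Flt1 were lower in 5 of 5 pairs, with log2 fold changes of -0.37 and -0.13. The blocked limma fit did not call them (adjusted p = 0.0612 and 0.11). The other tested genes of the list had pairs in both directions. Slco1a4 had the highest log2 fold change of the list, whose values ran from -0.37 to 0.17 with a median of -0.13. The summed level of the list was 24875 to 26624 normalized counts in shControl and 21462 to 30808 in shOpn3, with Cldn5 and Cdh5 present in all samples. Astrocyte markers moved in part, with 3 of 7 called higher, and their summed level was 222784 to 287239 in shControl and 275811 to 402347 in shOpn3. Its part in the Vcam1 and Icam1 values was not tested. In bulk tissue a change in the number of cells of a type and a change in RNA per cell cannot be told apart.

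RefSeq promoter windows of assembly GRCr8 were found for 4 of the 9 genes, namely Vcam1, Icam1, Sele and Itga4. Those of Vcam1 and Icam1 are shown because these are the inducible ligands that rose together. Each window runs from 250 bases before the start that RefSeq lists to 50 bases after it, on the strand of the gene, at chr2:206742734-206743033 (minus strand) for Vcam1 and chr8:27829595-27829894 (plus strand) for Icam1. Capitals mark matches on either strand to the canonical consensus of NF-κB, the factor that cytokines activate, or to the shorter GGNNNTTCC, which can overlap it.
Vcam1: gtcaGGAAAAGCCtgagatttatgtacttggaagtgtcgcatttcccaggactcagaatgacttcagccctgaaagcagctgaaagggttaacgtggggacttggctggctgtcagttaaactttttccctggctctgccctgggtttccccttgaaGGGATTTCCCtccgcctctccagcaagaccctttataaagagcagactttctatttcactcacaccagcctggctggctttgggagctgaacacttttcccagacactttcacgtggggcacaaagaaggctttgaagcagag
Icam1: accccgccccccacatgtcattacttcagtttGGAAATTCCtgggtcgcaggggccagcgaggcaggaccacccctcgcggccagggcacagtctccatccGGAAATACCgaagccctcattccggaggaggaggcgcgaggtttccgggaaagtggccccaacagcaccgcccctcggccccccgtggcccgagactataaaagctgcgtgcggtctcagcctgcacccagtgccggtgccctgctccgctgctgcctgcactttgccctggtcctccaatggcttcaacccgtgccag
The Vcam1 window held 1 match to the consensus, GGGATTTCCC, from 93 to 84 bases before the start. A match to GGNNNTTCC lies inside it, and a second one begins 246 bases before the start. The Icam1 window held no match to the consensus and 2 places that match GGNNNTTCC, GGAAATTCC and GGAAATACC. Among all 33469 windows, 7.51% held the consensus and 18.3% held GGNNNTTCC. TATAAA stood in both windows, 60 bases before the start in Vcam1 and 53 in Icam1, and in 14.2% of all windows. GGGCGG, which Sp1 binds, stood at 2 places in the Icam1 window and in 33.1% of all windows. The core of the interferon response element was found in the Vcam1 window and in 3.92% of all windows. The windows of Sele and Itga4 held none of these matches, and bases outside the windows were not read. Whether the starts that RefSeq lists are the ones used in this tissue was not tested, so their absence cannot be set against Vcam1 and Icam1. The motifs were chosen with these windows in view, so the shares over all windows are no test of the matches. A match is a string of letters, and no binding was measured.

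The subunits of LFA-1 were both called. Itgal (ENSRNOG00000017980), the alpha subunit found on lymphocytes and other leukocytes, had 220.2, 169.9, 143, 160.1 and 215 normalized counts in shControl replicates 1 to 5 and 490.2, 644, 1352, 2027 and 940.02 in shOpn3 replicates 1 to 5. The lowest shOpn3 sample was well above the highest shControl sample, and the shOpn3 samples were spread widely. The mean rose from 182 ± 34.3 to 1091 ± 618 (SD, n = 5 each). The log2 fold change from limma was 2.42, with SE 0.320 and an adjusted p of 0.000533.

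Itgb2 (ENSRNOG00000001224) encodes the beta subunit shared by LFA-1 and the other leukocyte integrins. It had 639, 448, 432, 442 and 518 normalized counts in shControl replicates 1 to 5 and 1102, 935, 1711, 2188 and 1284 in shOpn3 replicates 1 to 5. The mean rose from 496 ± 87.2 to 1444 ± 507 (SD, n = 5 each). In limma the log2 fold change was 1.49, with SE 0.207 and an adjusted p of 0.000682. The pairs of Itgal and Itgb2 fell in the same order: replicate 4 had the largest difference (3.65 and 2.31 on the log2 scale), then replicates 3, 5 and 2, and replicate 1 the smallest (1.15 and 0.79).

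The alpha subunit rose more than its partner. The log2 ratio of Itgal to Itgb2 lay between -1.59 and -1.26 in shControl and between -1.17 and -0.11 in shOpn3, so that the groups did not overlap. The ratio was higher by 0.93 in shOpn3 (exact permutation p = 0.00794, adjusted p = 0.0119) and in 5 of 5 pairs.

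Microglial and lymphocyte markers were higher beside these subunits. Of 12 microglial markers 10 were called higher and 0 lower, and their summed level was 16938 to 20582 normalized counts in shControl and 25947 to 48094 in shOpn3, with none at 0. Of 12 markers of T and NK cells, 10 were tested and 7 were called higher, among them Cd3e, Cd3g, Cd8a and Cd4. Their summed level was 780 to 1002 in shControl and 1750 to 4747 in shOpn3, mostly from Cd4, which rat macrophages and microglia also carry. The 11 genes other than Cd4 summed to 196 to 303 and 293 to 689. Cd3e had 10.2 to 29.0 normalized counts in shControl and 28.7 to 98.5 in shOpn3, and Gzmb was at 0 in all samples. The part of these cells in the Itgal and Itgb2 values was not tested.

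Itga4 (ENSRNOG00000004861), the alpha subunit of VLA-4, had 126, 181, 231, 228 and 139 normalized counts in shControl replicates 1 to 5 and 183, 234, 259.8, 311 and 192 in shOpn3 replicates 1 to 5. The groups overlapped, although all 5 pairs were higher in shOpn3, by 0.17 to 0.53 on the log2 scale. Its log2 fold change was 0.39 (SE 0.203, 95% interval -0.05 to 0.84, limma adjusted p = 0.205). With equal replicate numbers treated as blocks the adjusted p was 0.0149 (SE 0.0933), and this was the one fit of 20 that called it. With that block 6 of the 9 genes were called, against 30.3% of all genes tested.

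The log2 ratio of Itga4 to Itgal was -0.03 ± 0.66 (SD, n = 5) in shControl against -2.05 ± 0.58 (SD, n = 5) in shOpn3, and was lower in 5 of 5 pairs (exact permutation p = 0.00794, adjusted p = 0.0119). Itgb1, the partner of Itga4 that most cells carry, had 10403 to 14366 normalized counts in shControl and 10396 to 14284 in shOpn3 (log2 fold change -0.13, SE 0.110, limma adjusted p = 0.466). Itgb7, its other partner, had 6.11 to 31.6 and 20.2 to 46.4 (log2 fold change 0.65, SE 0.402, limma adjusted p = 0.294).

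**Figure D2:**
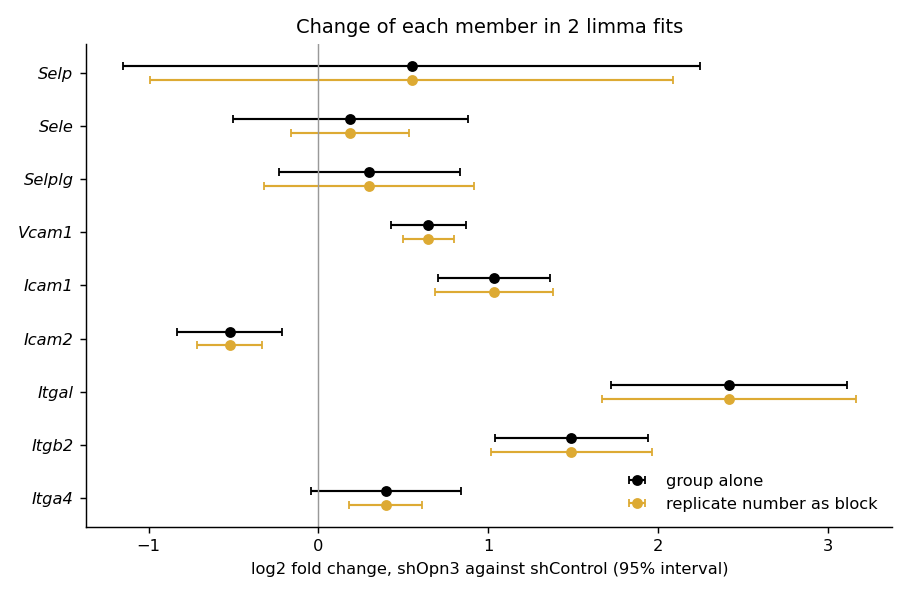
Log2 fold change of each gene in shOpn3 against shControl (horizontal axis) with its 95% interval, from limma with the group alone (black) and with equal numbers blocked (yellow). The interval of Itga4 includes 0 in the first fit and lies from 0.18 to 0.61 in the second, while those of Selp, Sele and Selplg include 0 in both.

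Selp, Sele and Selplg were called in 0 of the fits that gave them a value. Selplg (ENSRNOG00000000699), which encodes the ligand PSGL-1 on leukocytes and microglia, had 537, 419, 289.8, 303 and 386 normalized counts in shControl replicates 1 to 5 and 345, 456, 512, 822 and 325 in shOpn3 replicates 1 to 5. It was higher in shOpn3 in 3 pairs and lower in 2, with log2 differences from -0.64 in replicate 1 to 1.44 in replicate 4. The log2 fold change was 0.30 (SE 0.245, 95% interval -0.23 to 0.83, limma adjusted p = 0.442). Relative to Selplg, Itgb2 was higher in shOpn3 by 1.19 on the log2 scale and in 5 of 5 pairs (exact permutation p = 0.00794, adjusted p = 0.0119).

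Sele (ENSRNOG00000002723) had few reads, 22.4, 57.0, 33.7, 41.2 and 21.1 normalized counts in shControl replicates 1 to 5 and 27.8, 62.7, 38.3, 44.4 and 24.7 in shOpn3 replicates 1 to 5. In both groups the order of the samples was the same, from replicate 2 at the top through 4, 3 and 1 to replicate 5. Each pair was slightly higher in shOpn3, by 0.11 to 0.30 on the log2 scale. Against the spread over replicates this was small (log2 fold change 0.19, SE 0.318, 95% interval -0.50 to 0.88, limma adjusted p = 0.73). With the block the adjusted p was 0.381 and the interval -0.16 to 0.53.

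Selp (ENSRNOG00000002794) was near the floor in all samples but one. It had 7.14, 8.14, 7.14, 2.81 and 9.49 normalized counts in shControl replicates 1 to 5 and 5.76, 126, 3.74, 6.76 and 4.11 in shOpn3 replicates 1 to 5. These stand for 3 to 9 reads in shControl, 119 reads in shOpn3 replicate 2 and 4 to 7 reads in the other shOpn3 samples, so that 1 library held 68.4% of the 174 reads. Its mean passed the filter of 10 through that library. The log2 fold change was 0.55 (SE 0.781, 95% interval -1.15 to 2.25, limma adjusted p = 0.676). The value depended on the method: it was 2.03 in edgeR (adjusted p = 0.182) and 0.18 after quantile normalization (adjusted p = 0.901). The authors' deposited table gave 2.08 with a standard error of 1.05 and no p-value. Without shOpn3 replicate 2 the shOpn3 mean was 5.09 ± 1.42 (SD, n = 4) against 6.94 in shControl (exact two-sided permutation test, p = 0.31), and the gene fell below the filter. The log2 ratio of Sele to Selp did not pass (difference -0.36, exact permutation p = 0.746, adjusted p = 0.746), and without that library the difference was 0.34.

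**Figure D3:**
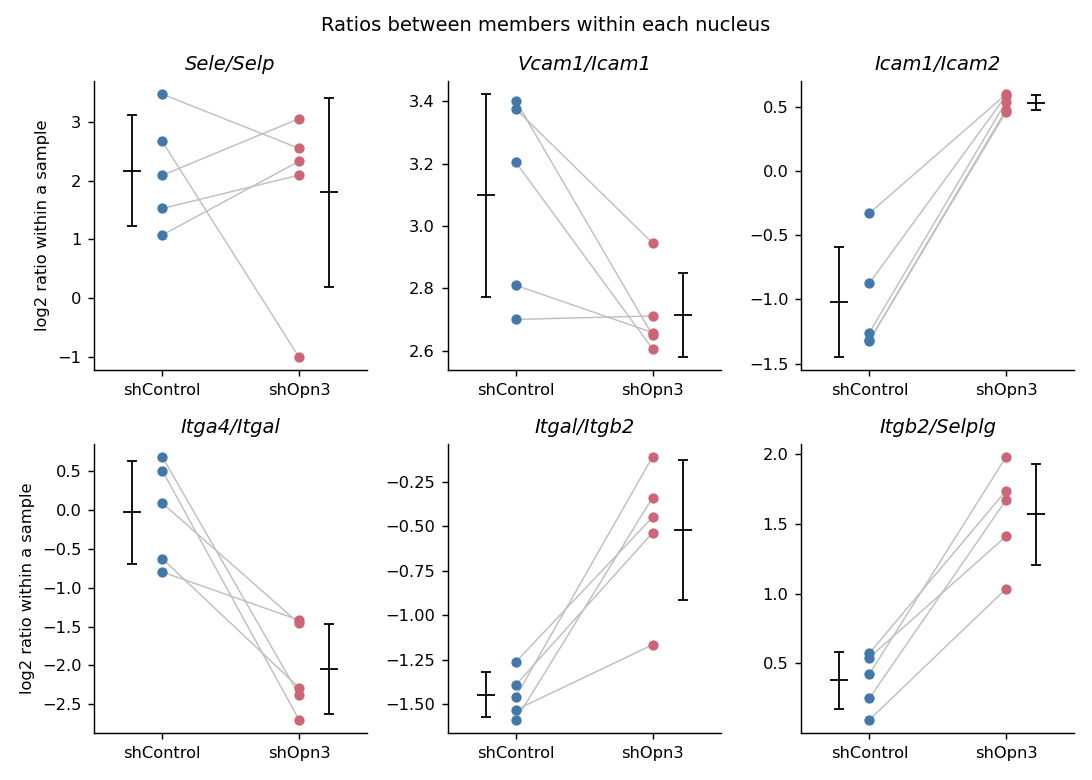
Log2 ratio of 2 genes within each sample (vertical axis, log2 scale, each panel with its own range) in shControl and shOpn3. Grey lines join equal replicate numbers and black bars give the mean ± SD. Icam1/Icam2, Itga4/Itgal, Itgal/Itgb2 and Itgb2/Selplg separate the groups, while Sele/Selp and Vcam1/Icam1 do not.

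The other genes of leukocyte adhesion were read from 5 lists, and 79 of their 86 genes were tested. Of these, 38 were called, 31 higher and 7 lower (48.1%, beside 18.8% of all genes tested), with a median log2 fold change of 0.31. With the block it was 47 of 79 (59.5%, beside 30.3%). Among other integrin subunits, the leukocyte alpha subunits Itgax and Itgam, which pair with Itgb2, rose: Itgax from 40.8 ± 6.30 to 277 ± 113 normalized counts and Itgam from 1198 ± 166 to 3563 ± 1450.0 (SD over 5 samples a group), with log2 fold changes of 2.64 and 1.48 (SE 0.261 and 0.240, limma adjusted p = 0.000155 and 0.00141). These close copies could share reads, and the RefSeq table gives Itgax also as a synonym of Itgad, which was not analysed here. Itga6, a laminin receptor subunit, rose by 0.37 (SE 0.0926) and Itga3, another, fell by 0.60 (SE 0.127). In all, 5 of 22 other subunits were higher and 2 lower, with a median of 0.20.

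Of the machinery that switches integrins on, 6 of 15 genes were higher and 3 lower. Adaptors of blood-cell integrins rose, namely Fyb1 by 1.77, Apbb1ip (RIAM) by 1.15 and Skap2 by 0.79 on the log2 scale (SE 0.203, 0.155 and 0.128). Rap1a, the small GTPase that recruits RIAM, fell by 0.46 (SE 0.0764), and its groups did not overlap, with 4381 to 5362 normalized counts in shControl and 3221 to 3961 in shOpn3. Limma adjusted p for these 4 genes lay between 0.000306 and 0.00175. Rap1b, the other Rap1 gene of the list, went the other way, higher in 5 of 5 pairs with a log2 fold change of 0.28 (SE 0.122). It was not called by limma with the group alone (adjusted p = 0.14), and its adjusted p with the block was 0.0105.

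A list of NF-κB and cytokine pathway genes held cytokines, receptors and factors that induce adhesion molecules, and also inhibitors of the pathway. Of its 18 tested genes 14 were higher and 0 lower (median 0.66), and the inhibitors Nfkbia and Tnfaip3 were among the 14. Il1b had 38.7, 33.6, 45.9, 65.5 and 67.5 normalized counts in shControl replicates 1 to 5 and 79.6, 273, 266, 195 and 158 in shOpn3 replicates 1 to 5, with no overlap (log2 fold change 1.86, SE 0.325, limma adjusted p = 0.00216). Tnfaip3, an NF-κB target, rose by 0.93, Nfkbia by 0.43, and the receptor genes Il6r and Tnfrsf1b by 0.91 each (SE 0.136, 0.112, 0.128 and 0.151 in that order). Tnf was at 0 in all samples, and Ifng, at most 1.93 normalized counts, and Il6 were under the filter. Il6 had 0 to 2.11 normalized counts in shControl and 6.16 to 38.2 in shOpn3, higher in 5 of 5 pairs, and was called by DESeq2 (adjusted p = 0.000177).

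Of 13 other selectin genes, 5 were higher and 0 lower (median 0.41), and with the block 10 were called, 7 higher and 3 lower. Cd44, a receptor for hyaluronan that can also bear selectin ligands, was at 1747 ± 261 normalized counts in control nuclei and rose to 3464 ± 403 (SD over 5 samples a group), with a log2 fold change of 0.99, SE 0.109 and limma adjusted p = 0.000275. Cd34, a sialomucin of endothelium and precursor cells, rose by 0.80 (SE 0.181). Fut7 and Fut4, fucosyltransferases that build the sugar recognised by selectins, rose by 0.90 and 0.57 (SE 0.252 and 0.174). The 3 called lower with the block were other selectin ligand enzymes, St3gal4, Tpst1 and Tpst2. Their log2 fold changes were -0.37, -0.19 and -0.31 (blocked limma adjusted p = 0.0206, 0.0244 and 0.0295). Each was lower in all 5 pairs.

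Of 11 other immunoglobulin and junction molecules tested, 1 was higher and 2 lower (median 0.05). Icam5, the ICAM of forebrain neurons and a ligand of LFA-1, had 105 to 454 normalized counts in shControl and 447 to 730.1 in shOpn3 (log2 fold change 1.32, SE 0.361, limma adjusted p = 0.0233). Mcam and Jam3 fell by 0.79 and 0.76 (SE 0.128 and 0.129), with groups that did not overlap. Oligodendrocyte markers were lower beside them, 6 of 6 called, with summed levels of 692216 to 1177480 in shControl and 232898 to 443044 in shOpn3, and their part in the values of Mcam and Jam3 was not tested. Madcam1, the gut ligand of the pair of Itga4 and Itgb7, had at most 3.19 normalized counts in any sample. Pecam1 was not analysed here.

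**Figure D4:**
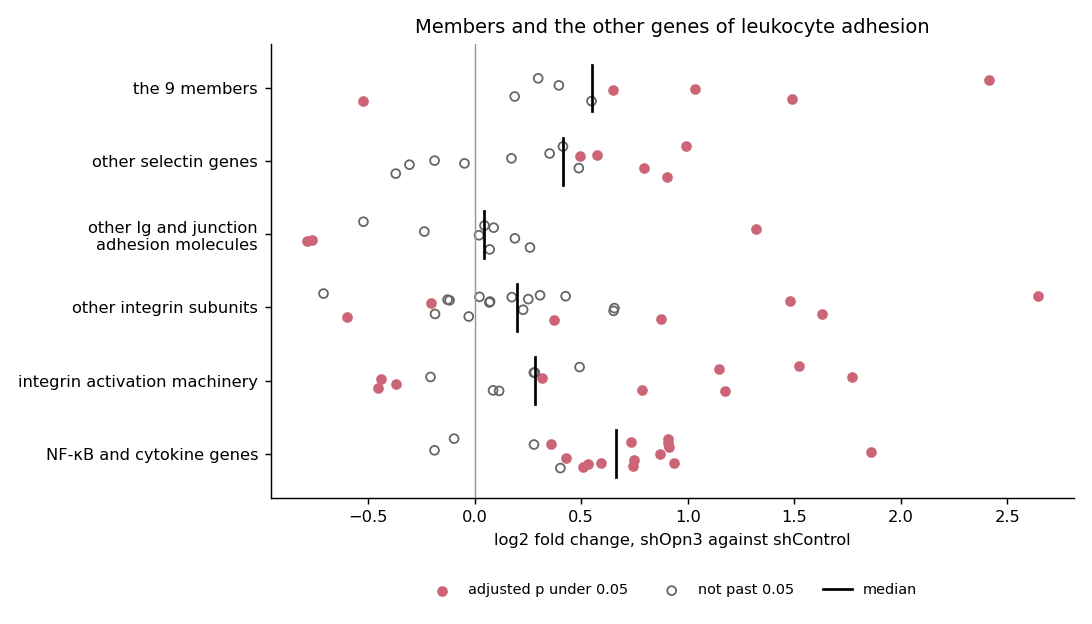
Log2 fold change (horizontal axis) of each tested gene of the 9 members and of the 5 lists of other adhesion genes. Filled points have a limma adjusted p under 0.05, open points do not, and black lines are list medians, which run from 0.05 for immunoglobulin and junction molecules to 0.66 for NF-κB and cytokine genes.

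Likeness of pattern was described by Pearson's r of log2 values over the 10 samples after the group means were taken off. Points from one sample share its library and dissection, and the 2 best of 13808 named genes are high by choice, so no p is given. Among the members Itgal and Itgb2 were most alike (r = 0.92), then Vcam1 and Itga4 (0.82). The member most like Selplg was Itgal (0.77), and the one most like Icam2 was Vcam1 (0.77). Sele was most like Icam2 (0.74), Icam1 most like Selplg (0.66) and Selp most like Sele (0.45). Over all genes, Itgal was most like RT1-CE4 and Axl (0.99 each), Itgb2 like Hcls1 and Snx18 (0.97 each), Itga4 like Rps6ka3 and Cnih4 (0.99 each) and Vcam1 like Tmem128 (0.99) and Kcnj13 (0.98). Icam2 was most like Ly6e and Slc16a4 (0.98 each), Sele like Utrn and Mnd1 (0.97 each) and Selplg like Fam169b (0.95) and Ogfod3 (0.92). Icam1 was most like Alx4 and Tcea3 (0.94 each). Selp was most like Cxcl1 (0.92) and Scd (0.91), a value that rests on shOpn3 replicate 2.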

How the data were processed

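Per the submitters' processing notes, reads were processed with FastQC, STAR, featureCounts and DESeq2. Versions, strand setting, genome build and annotation are not given in the sources used here, so genes that overlap or resemble others are uncertain. The authors deposited a signal per gene and sample, namely read counts divided by 1 size factor per sample (0.942 to 1.07). The same table holds, per the file headers, the authors' log2 fold change with its standard error, a Wald score, and p-values.

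All positive values were whole multiples of the smallest one of the sample (100% within a relative tolerance of 1e-06), which gave whole reads. Values were analysed as log2(normalized count + 1), for genes with a mean of at least 10, with limma 3.58.1 in R 4.3.3 (eBayes with trend, group alone), two-sided, with Benjamini-Hochberg adjustment over 15597 genes and a threshold of 0.05. Fold changes on this scale understate those of low genes. edgeR 4.0.16 and DESeq2 1.42.0 were run on the reads as alternatives. Ratios were tested by exact permutation over samples, two-sided, where 252 splits allow no p below 0.00794. The limma step was tested on simulated data.

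Across genes, samples with equal numbers deviated together from their groups in all 5 cases (r from 0.12 to 0.44), so the numbers were taken as pairs, and a blocked fit was added. The 20 combinations of unequal numbers gave r from -0.45 to 0.36, and shControl replicate 4 correlated more with shOpn3 replicates 2 and 3 (0.24 each) than with replicate 4 (0.12). The labels name no batch, and say that RNA came from individual nuclei.

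The members and gene lists were chosen with earlier results of these data known. The genes named are the 9 members, Opn3, Avp, Oxt, up to 4 called genes with the smallest adjusted p from each of the 5 adhesion lists, the partners Itgam, Itgax, Itgb1, Itgb7 and Madcam1, and the 2 genes most like each member. Another partner that the rule names is not reported here. Outside the rule, marker genes are named (Cldn5, Cdh5, Slco1a4, Egfl7, Flt1, Cd3e, Cd3g, Cd8a, Cd4, Gzmb, S100a8, S100a9, Elane). So are Tnf, Ifng, Il6, Nfkbia, Rap1b, St3gal4, Tpst1, Tpst2 and AABR07060979.1. All of these were chosen after their values were seen. Marker lists of 12 cell types were summed. Of these, border macrophages (1 of 5 called, higher), neurons (1 higher and 2 lower of 6) and the magnocellular pair (2 of 2 lower) are not described further. Neutrophils (1 of 4, higher) are described in part. Pericytes, B cells and platelets had 0 of 5, 0 of 3 and 0 of 2 called by limma with the group alone. In that fit 0 of each had an unadjusted p under 0.05. By edgeR and by DESeq2 0 were called, and by limma-voom 1, 0 and 0. Promoter letters come from RefSeq GRCr8. Motifs were chosen with those windows in view.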

Additional observations from a re-analysis of the deposited data

Results flagged for a closer look

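Of 32 group values examined (9 members, 6 ratios and library totals), 2 held a sample that stood apart, with a gap to the next sample of more than 0.71 of the group's range. Chance gives about 1 in 20. Both concern shOpn3 replicate 2. Selp stood there at 126.4 normalized counts, with 6.76 in the next shOpn3 sample, and its gap took 0.975 of the range. The log2 ratio of Sele to Selp was -1.001 there, with 2.09 in the next sample, and follows from the same Selp value. The library had 33715988 reads, within the range of the others. The cause was not tested.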

How the results depend on the processing

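Vcam1, Icam1, Itgal and Itgb2 kept direction and call in all 19 alternative fits, with log2 fold changes of 0.56 to 0.71, 0.94 to 1.13, 2.15 to 2.66 and 1.32 to 1.63. Icam2 ranged from -0.67 to -0.46 and lost its call in the 4 fits that leave out a library named above. Sele turned to -0.35 in limma-voom with sample quality weights (adjusted p = 0.378), and Selp and Selplg were called in 0 fits. Over other fits Sele ran from 0.0044 to 0.38 (0.0055 without shOpn3 replicate 2 and 0.38 without shControl replicate 2), Selp from 0.18 to 2.03, Selplg from 0.09 (without shOpn3 replicate 4) to 0.43 and Itga4 from 0.19 to 0.49. The cause of these shifts was not tested. The number of members called was 5 or 6 in other fits and 4 or 5 without single libraries. The number of genes called was 4726 with the replicate block (2350 higher) and 5085 in limma-voom with weights (2441 higher), against 2940 (1618 higher). It ran from 1973 to 3057 without single libraries. The number of other adhesion genes called ran from 27 to 51 over all fits. By list, selectin genes called were 8 in DESeq2, 9 in limma-voom and 10 with the block (5 in the main test), immunoglobulin and junction molecules 6 in limma-voom (3) and integrin subunits 11 in limma-voom (7). Sele gave no value at a mean of at least 50, nor Selp there, in DESeq2 or without shOpn3 replicate 2. Over the 5 pairs, sign flips allow no p below 0.0625, so with the pairing as a replicate block no ratio could pass: Icam1/Icam2 was 1.56, Itga4/Itgal -2.02, Itgal/Itgb2 0.93 and Itgb2/Selplg 1.19, each with an adjusted p of 0.0938. Without single libraries Vcam1/Icam1 ran from -0.48 to -0.31 and Sele/Selp from -0.67 to 0.34, the last without shOpn3 replicate 2, which reversed its sign. The block changed no call of a member other than Itga4. Depth limits Selp, at 3 to 9 reads in 9 libraries, and Sele, at 20 to 59 reads.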

Other observations

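The library with the high Selp value was looked at after its values were seen. A gene was counted for a library where it had at least 100 normalized counts and at least 5 times the highest of the other 9 samples. Of all genes in the table, 3 met this in shOpn3 replicate 2, 2 in shOpn3 replicate 1 and 0 in each of the other 8 libraries. The genes in shOpn3 replicate 2 were Selp, Cxcl1, a chemokine that draws neutrophils, and AABR07060979.1. Cxcl1 stood at 899.6 normalized counts (847 reads), with 14.5 in the next sample. AABR07060979.1 stood at 104 (98 reads), with 1.05 in the next. Il6, under the filter on low values, was also highest in that library, at 38.2 normalized counts, while shOpn3 replicate 1 had 14.4 and no shControl sample exceeded 2.11. Of the neutrophil markers, S100a8 was at 24.4 and S100a9 at 85.0 there, inside the range of the other samples, and Elane was at 0 in all samples. These are a part of the list: of its 4 tested genes 1 was called higher, and 1 had groups that did not overlap. The called gene is not among those named here. Log2 fold changes of the tested genes ran from -0.61, that of S100a8, to 1.40. The list summed to 435 normalized counts in that library, against 263 to 608 in shControl and 435 to 1129 in shOpn3. Whether neutrophils were present was not tested. Icam1 and Vcam1 in that library were at 705 and 4431, below shOpn3 replicate 4.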
